A study of Rattus norvegicus with 43 samples.

Results

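The genes of DNA replication and S phase were followed in A7r5 cells, a smooth muscle line from rat aorta, under differing folic acid supply. The set was named by symbol, with earlier results of these data known, and holds 35 genes. Of these, 32 had at least 1 probe set carrying that symbol alone, out of 14217 genes so represented on the array, and where a gene had several, the brightest on average over the 43 arrays was read. Cdc6 and Gins2 had no such probe set, and Rrm2 had only 2 that it shares with another symbol. Ccne2 lay between 2.86 and 3.97 on the log2 scale in all arrays, under the limit of 4 that a gene had to exceed in at least 4 arrays, so 31 genes were tested. Cells were kept in custom-made DMEM with folic acid at 2.5 ng/ml (deficient), 10 ng/ml (sufficient) or 100 ng/ml (excess), and RNA was taken after 7, 14 and 21 days. All 9 groups shared the cell line and the base medium, and the labels set them apart by folic acid and time. There were 5 arrays in each group, except for 4 in deficient and 4 in excess medium at day 7. Whether the replicates came from separate cultures is not stated in the labels. The p-values therefore reflect only how far these samples spread, and that spread may be technical.

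Replication starts at origins marked by the origin recognition complex, on which Cdc6 and Cdt1 load the ring of Mcm2 to Mcm7 during G1, a step called licensing. At S phase entry Cdc45 and the GINS proteins join that ring to form the active helicase, DNA polymerase alpha with its primase lays down primers, and polymerases delta and epsilon extend them with the sliding clamp Pcna, which the RFC complex loads. Transcription of most of these genes is driven in late G1 by E2F factors once cyclin-dependent kinases have inactivated the retinoblastoma proteins, and it falls when cells leave the cycle. Folate supplies the carbon unit that turns dUMP into dTMP, and so bears on the nucleotides that S phase consumes.

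E2F control is a shared trait of this pathway, so the promoters of these genes were read from RefSeq (assembly GRCr8). Each was 300 bases, from 250 before the start of the gene to 50 after it. An entry was found for 29 of the 35 genes. Mcm4, Orc1, Cdc6, Rrm2, Ccne2 and E2f1 had none. The promoters of Mcm7, Mcm5, Gins1, Chaf1a, Pola2 and Ccne1 are printed here for their 250 bases before the start, 5′ to 3′ on the strand of the gene, with each E2F word in capitals. The words searched on both strands were TTTCCCGC, TTTCCCGG, TTTCGCGC, TTTCGCGG, TTTGCCGC, TTTGCCGG, TTTGGCGC and TTTGGCGG, and words on opposite strands may overlap. Mcm7, Mcm5, Gins1 and Chaf1a had differences of 1.03 log2 units or more between excess and sufficient medium at day 21. Lig1 (1.06) and Rfc3 (1.05) did so too and are not printed. Their words do not lie whole within the 250 bases before the start. Pold1, just below that size at 1.02, has a promoter entry with no word and is not printed either. Pola2 and Ccne1 are the genes whose group means correlated least with those of the rest, and Ccne1 has no word. The regions are chr12:22163179-22163428 on the minus strand for Mcm7, chr19:13488563-13488812 on the plus strand for Mcm5, chr3:160184670-160184919 on the plus strand for Gins1, chr9:960975-961224 on the plus strand for Chaf1a, chr1:212680543-212680792 on the minus strand for Pola2 and chr1:99927910-99928159 on the minus strand for Ccne1.
Mcm7: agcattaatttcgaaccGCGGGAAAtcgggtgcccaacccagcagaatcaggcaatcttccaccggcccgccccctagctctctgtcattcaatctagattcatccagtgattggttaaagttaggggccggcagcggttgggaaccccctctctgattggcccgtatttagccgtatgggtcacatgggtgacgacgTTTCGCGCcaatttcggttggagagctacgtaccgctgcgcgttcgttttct
Mcm5: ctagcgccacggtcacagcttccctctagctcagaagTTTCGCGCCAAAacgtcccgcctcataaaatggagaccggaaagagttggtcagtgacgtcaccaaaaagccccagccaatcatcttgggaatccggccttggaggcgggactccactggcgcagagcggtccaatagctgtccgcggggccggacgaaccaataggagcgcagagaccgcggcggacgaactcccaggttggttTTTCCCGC
Gins1: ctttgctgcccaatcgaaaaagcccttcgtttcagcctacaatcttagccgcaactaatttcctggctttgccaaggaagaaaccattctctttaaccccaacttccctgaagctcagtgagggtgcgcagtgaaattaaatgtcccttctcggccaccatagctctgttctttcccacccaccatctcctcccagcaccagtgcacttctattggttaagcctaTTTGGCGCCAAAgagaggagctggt
Chaf1a: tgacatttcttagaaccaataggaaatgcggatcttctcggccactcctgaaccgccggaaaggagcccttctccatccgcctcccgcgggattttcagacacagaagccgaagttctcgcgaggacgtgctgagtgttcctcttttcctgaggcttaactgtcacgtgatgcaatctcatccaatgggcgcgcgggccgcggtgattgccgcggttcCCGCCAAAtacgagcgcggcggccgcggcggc
Pola2: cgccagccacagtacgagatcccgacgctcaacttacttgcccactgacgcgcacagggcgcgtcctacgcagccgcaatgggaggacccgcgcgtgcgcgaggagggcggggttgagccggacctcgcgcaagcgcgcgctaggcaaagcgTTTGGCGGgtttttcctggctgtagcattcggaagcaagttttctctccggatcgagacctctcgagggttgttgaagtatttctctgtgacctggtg
Ccne1: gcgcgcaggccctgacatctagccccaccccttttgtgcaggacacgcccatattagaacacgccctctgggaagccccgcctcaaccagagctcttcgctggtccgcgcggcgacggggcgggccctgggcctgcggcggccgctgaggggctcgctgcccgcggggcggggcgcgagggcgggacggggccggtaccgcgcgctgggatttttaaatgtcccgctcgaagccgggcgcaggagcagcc

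An E2F word lay in the 300-base promoter of 18 of the 29 genes (62.1%), against 1542 of 33469 promoters in all (4.61%). Among genes tested for expression the shares were 18 of 28 (64.3%) and 659 of 7687 other genes (8.57%). The 18 genes held 30 words, of which 23 began within 100 bases before the start or after it. The CCAAT word, a common promoter element, was present in 17 of 29 (58.6%) against 37.5% of all promoters. Among tested genes it was in 57.1% against 39.9% of the others. The word TTTGAA, the core of the element that marks many mitotic genes, was present in 2 (6.9%) against 18.3%. Among tested genes the contrast was smaller, 7.14% against 12.3% of the others. The GC box GGGCGG was present in 18 (62.1%) against 33.1% of all promoters, but among tested genes in 60.7% against 66.0% of the others. A match describes the letters of the window and is not evidence of binding.

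The arrays themselves gave the following background. Replicate arrays correlated at 0.9912 to 0.998, and none was a copy of another (0 identical pairs). All 10 smooth muscle markers passed the filter in all 43 arrays, with Acta2, Tagln, Cald1 and Tpm2 at means between 13.8 and 14.2. Of the markers of other cells with a probe set, 1 of 5 endothelial, 1 of 6 macrophage, 1 of 5 epithelial, 2 of 5 fibroblast and 5 of 6 skeletal muscle markers passed. Pecam1, Kdr, Ptprc, Csf1r, Epcam, Cdh1, Pdgfra and Dcn stayed under the limit in all arrays. Others exceeded it in all 43 arrays: Thy1 (fibroblast, mean 10.72), Acta1 (skeletal muscle, 8.17), Krt8 (epithelial, 7.98) and Cd14 (macrophage, 5.98). Des, listed for both smooth and skeletal muscle, did so too (8.75). Running serial numbers in the sample titles reach 56, and those above 45 break the order of the groups. Some repeat: replicates 2, 3 and 5 of sufficient day 14 all carry 22. Replicate 6 of excess day 14 and replicate 6 of sufficient day 21 both carry 50. The last, 53 to 56, belong to excess medium at days 14 and 21 alone. The difference between the 3′ and 5′ probe sets of beta-actin, which grows as RNA is degraded, exceeded 2.1 log2 units in 8 arrays, 3 of excess day 14, 3 of excess day 21 and 2 of sufficient day 7.

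Replication genes fell steeply with time in every medium and fell least in excess folic acid. Between days 7 and 14 in sufficient medium, 30 of 31 genes fell in limma (adjusted p below 0.05 by the Benjamini-Hochberg method over all 9095 genes tested), where 24.7% of all genes tested were lower. The median difference of the 31 was -1.21 log2 units, against -0.03 over all genes. In 28 of the 31 the values of the 2 days did not overlap, against 15.2% of all genes. In these bulk samples, fewer cells in S phase and less of each transcript per cell cannot be told apart. In deficient medium 31 of 31 fell over the same week (median -1.23, 26.2% of all genes lower), all 31 without overlap (22.1% of all genes). In excess medium 27 of 31 fell (20.9% of all genes lower), 21 without overlap (14.6% of all genes), and the median was -0.47.

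**Figure D1:**
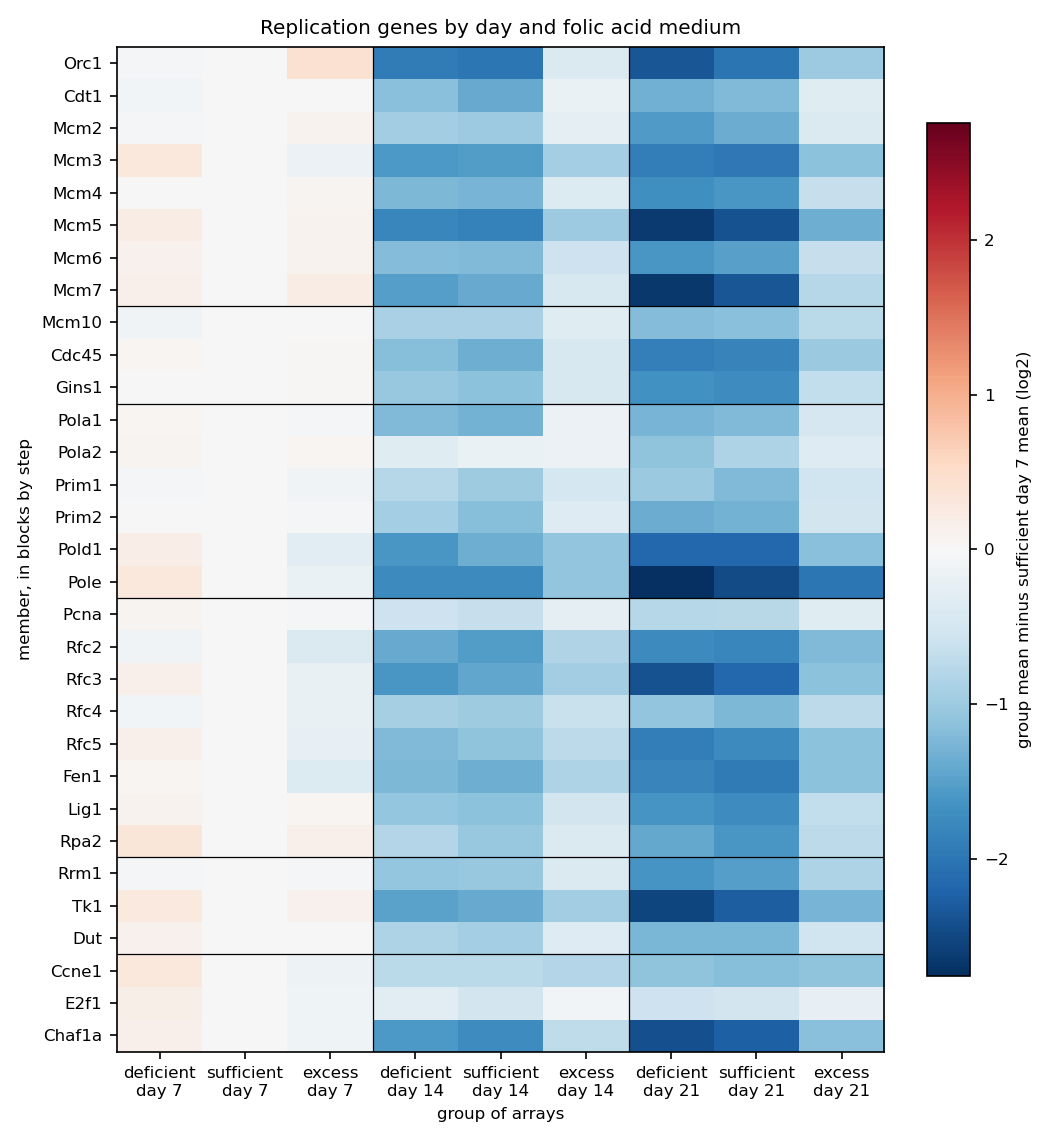
Each row is 1 of the 31 tested replication genes, in blocks by step, and each column is 1 of the 9 groups of arrays. Colour is the group mean minus the mean of sufficient day 7 (log2). Day 7 columns are near 0 in all media, and at days 14 and 21 the excess column is paler than its neighbours for most genes, Ccne1 being an exception.

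The averages over the 31 genes put this in order. At day 7 the mean of the 31 values was 9.02 ± 0.03 in deficient, 8.93 ± 0.10 in sufficient and 8.89 ± 0.08 in excess medium (SD over arrays, n = 4, 5 and 4). At day 14 it was 7.77 ± 0.11, 7.73 ± 0.06 and 8.38 ± 0.06 (n = 5 each), and at day 21 it was 7.24 ± 0.05, 7.31 ± 0.04 and 8.10 ± 0.04 (n = 5 each). Deficient and sufficient medium differed by less than the wider of the group ranges at each day. In contrast, the 5 excess arrays lay above every other array of their day at both later days. The mean of excess day 21 was above that of sufficient day 14 for 27 of 31 genes, the exceptions being Pola2, Pole, Rfc5 and Ccne1. For 30 of 31 the mean of excess day 14 was below every day 7 mean, E2f1 being the exception.

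Among licensing factors in sufficient medium, Orc1, the large ATPase subunit of the origin complex, had the steepest fall between days 7 and 14. Its values in sufficient medium were 6.22, 6.58, 6.82, 6.28 and 6.18 at day 7, then 4.35, 4.04, 4.61, 4.57 and 4.52 at day 14, a 3.99-fold fall (SE 0.23 on the log2 scale, adjusted p = 1.83e-09 in limma). Every day 14 value was below every day 7 value, and the later ones stood just above the limit of 4, so the size is inexact. Mcm5, a subunit of the ring, read 8.63, 8.60, 7.89, 8.39 and 8.47 at day 7 and 6.90, 6.77, 6.33, 6.40 and 6.26 at day 14 (-1.86 ± 0.15, adjusted p = 1.69e-13). Its ranges were apart by nearly a whole log2 unit. All 8 licensing factors fell in sufficient medium, with a median of -1.38. In deficient and in excess medium Mcm5 fell further than Orc1 over that week.

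In the polymerases the spread was wider. Pole, the catalytic subunit of polymerase epsilon, read 8.61, 8.65, 8.18, 8.74 and 8.73 at day 7 and 6.96, 7.32, 6.40, 6.86 and 6.62 at day 14 in sufficient medium (-1.75 ± 0.13, adjusted p = 2.43e-14). In deficient medium its day 7 values were 8.69, 8.91, 8.83 and 9.10, and its day 14 values were 6.52, 7.01, 6.87, 6.65 and 7.11, the largest fall of the set there (-2.05 ± 0.14). Pola2, the regulatory subunit of polymerase alpha, was the only gene without a call in sufficient medium. It read 8.77, 8.76, 8.64, 8.87 and 8.78 at day 7 and 8.68, 8.45, 8.65, 8.62 and 8.50 at day 14 (-0.18 ± 0.09, adjusted p = 0.0954). Its groups overlapped at this step, and it fell only in the following week, by 0.67 ± 0.09.

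The remaining steps moved by similar amounts in sufficient medium. Helicase factors fell with a median of -1.14 (3 of 3), clamp, loader and strand processing genes with -1.12 (8 of 8) and nucleotide supply genes with -1.04 (3 of 3). Of the helicase factors, Mcm10 lay under the limit of 4 in all sufficient arrays of day 14, so the size of its fall is inexact. Pcna, the clamp, changed least among the 8 of its step. It read 12.54, 12.49, 12.46, 12.44 and 12.43 at day 7 and 11.87, 11.89, 11.85, 11.76 and 11.82 at day 14 (-0.64 ± 0.05, adjusted p = 1.47e-14), so its values did not overlap despite the small difference. Chaf1a, the large subunit of the histone chaperone that packs new DNA, fell by 1.73 ± 0.11. E2f1 and Ccne1, which act upstream of S phase as an activating E2F factor and the cyclin partner of Cdk2, fell by 0.50 ± 0.10 and 0.73 ± 0.13, and their ranges overlapped between days.

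Between days 14 and 21 the fall went on more slowly. In sufficient medium 24 of 31 fell (16.7% of all genes lower) with a median of -0.45, and 18 did not overlap (9.77% of all genes). In deficient medium 26 of 31 fell (17.9% of all genes lower) with a median of -0.56, and 20 did not overlap (12.6% of all genes). In excess medium 12 of 31 fell (11.2% of all genes lower) with a median of -0.26, and 6 did not overlap (7.38% of all genes). Mcm7, a ring subunit, fell furthest in sufficient medium (-0.97 ± 0.08) and in deficient medium (-1.14 ± 0.08). Tk1, the thymidine kinase of the salvage pathway, fell by 0.88 ± 0.10 and 1.05 ± 0.10 in these media. Its values in sufficient medium were 7.24, 7.41, 7.20, 7.34 and 7.49 at day 14 and 6.61, 6.45, 6.48, 6.56 and 6.16 at day 21, which did not overlap.

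Some genes gave no call over the last week. In sufficient medium Orc1 differed by -0.01 ± 0.23, Cdt1 by 0.16 ± 0.12, Pola1 by 0.09 ± 0.11 and E2f1 by -0.02 ± 0.10, with adjusted p from 0.297 to 0.973. Cdt1 loads the ring and is destroyed once S phase begins, and Pola1 is the catalytic subunit of polymerase alpha. In excess medium the largest falls of that week were in Pole (-0.90 ± 0.13), Orc1 (-0.61 ± 0.23) and Cdc45 (-0.58 ± 0.16). Orc1 lost its call in 13 of 22 settings, Cdc45 in 1 and Pole in 0. The values of Cdc45, which completes the helicase, were 6.44, 5.59, 6.14, 5.86 and 5.59 at day 14 and 5.17, 5.09, 5.74, 5.27 and 5.47 at day 21, so 1 value of the later day lay within the earlier range. The count of 12 was 7 without serials 53 to 56, 6 with serials up to 45 only and 3 when the 8 arrays past the beta-actin limit were left out.

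In excess against sufficient medium the replication genes did not stand apart at day 7. Of 31, 1 was lower (Rfc2), where 2.1% of all genes were lower and 2.37% were called in either direction, and the median was -0.03 against -0.06 over all genes. Rfc2, a subunit of the clamp loader, read 8.74, 8.90, 8.68, 8.36 and 8.22 in sufficient and 8.09, 8.53, 7.91 and 8.17 in excess medium (-0.40 ± 0.11, adjusted p = 0.0499 in limma). These ranges overlapped, and the call was lost in 13 of 21 settings. Fen1, the nuclease that trims Okazaki fragments, was close behind at -0.38 ± 0.11 (adjusted p = 0.0621). With the beta-actin covariate Fen1 was called (adjusted p = 0.0296) and Rfc2 was not (adjusted p = 0.0775). Orc1 had the widest interval of the 31, from -0.06 to 0.91.

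At day 14, 28 of 31 genes were higher in excess than in sufficient medium, where 22.3% of all genes were higher and 41.2% were called in either direction. The median difference was 0.64 log2 units, or 1.56-fold, against 0.01 over all genes. In 25 genes every excess array was above every sufficient array, against 11.4% of all genes. None of the 31 was lower, where 18.8% of all genes were. At day 21, 30 of 31 were higher (24.4% of all genes higher, 19.3% lower and 43.7% in either direction) with a median of 0.82, or 1.76-fold, against 0.03 over all genes. The groups did not overlap for 29 of them, against 15.1% of all genes.

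**Figure D2:**
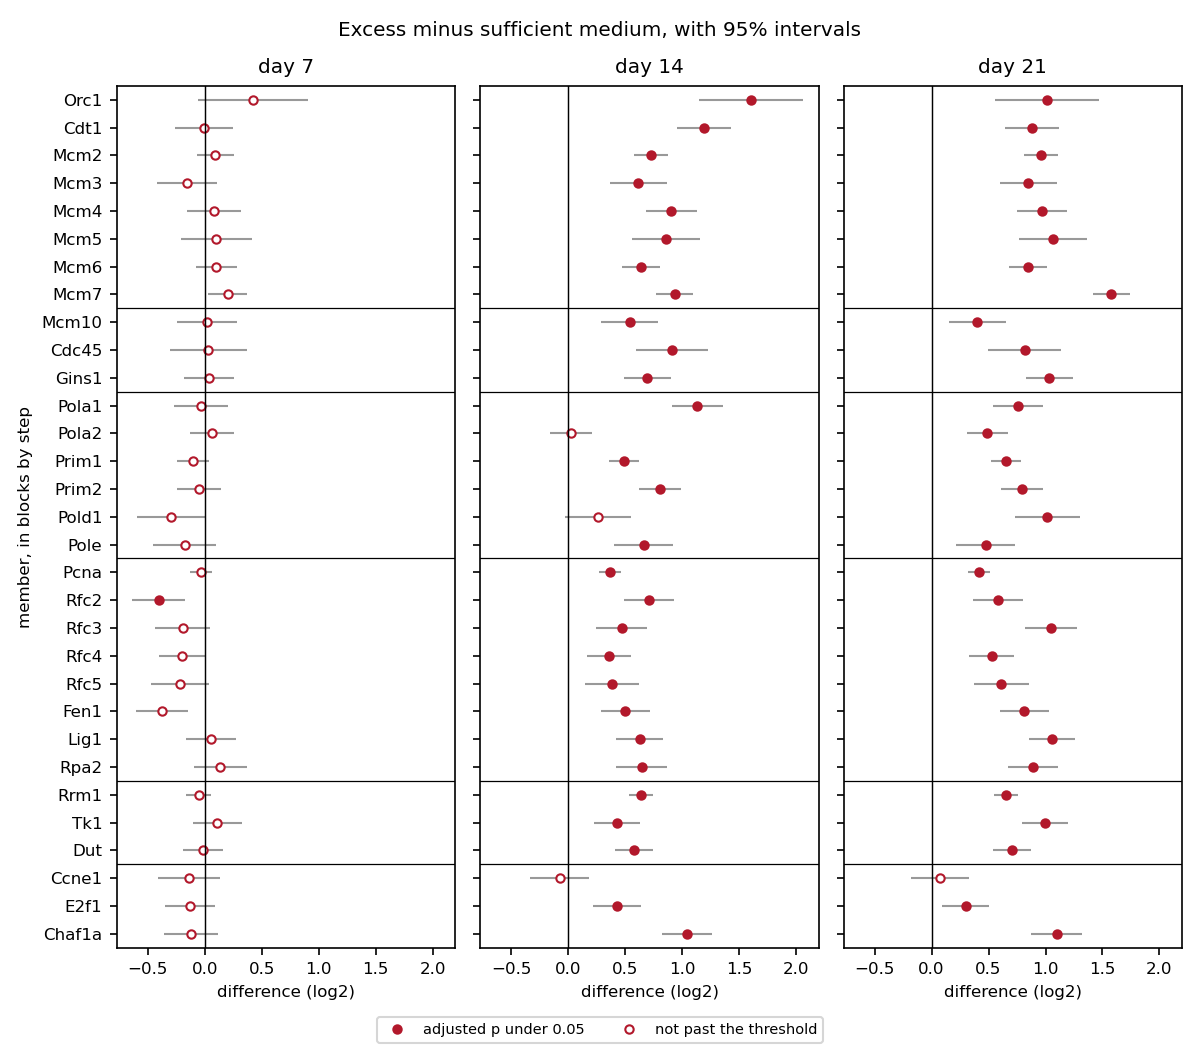
Excess minus sufficient medium for each of the 31 replication genes at days 7, 14 and 21 (log2), with 95% intervals from limma, and filled points past an adjusted p of 0.05. At day 7 the points scatter around 0 with 1 filled, at day 14 there are 28 filled points and at day 21 there are 30, Ccne1 being open at both later days.

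Licensing factors had the largest differences, with a median of 0.88 at day 14 and 0.96 at day 21 over 8 genes, all of them higher at both days. Orc1 read 4.35, 4.04, 4.61, 4.57 and 4.52 in sufficient and 6.25, 6.57, 5.75, 5.77 and 5.79 in excess medium at day 14, a 3.05-fold difference (1.61 ± 0.23, adjusted p = 4.56e-07 in limma). The excess values were all higher by more than 1 log2 unit. At day 21 the sufficient values were 4.21, 4.34, 4.35, 4.44 and 4.68 and the excess values 4.93, 5.32, 5.40, 5.55 and 5.89 (1.01 ± 0.23, adjusted p = 0.000347). The groups were again apart, though by less, and the sufficient arrays stood at the same level as a week before.

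Cdt1 read 6.85, 7.09, 7.08, 6.72 and 6.95 in sufficient medium at day 14, and 8.29, 8.06, 8.31, 8.19 and 7.78 in excess medium (2.28-fold, 1.19 ± 0.12, adjusted p = 1.79e-10). At day 21 it read 6.84, 7.18, 7.22, 7.26 and 6.98 against 7.87, 7.77, 8.35, 7.93 and 7.98 (0.88 ± 0.12, adjusted p = 9.59e-08). No excess array overlapped a sufficient array at either day. In excess medium the difference of Cdt1 between days 7 and 14 did not pass (-0.19 ± 0.12, 95% interval -0.44 to 0.07). It passed with the beta-actin covariate (-0.31, adjusted p = 0.0386) and with the arrays past the beta-actin limit left out (-0.39, adjusted p = 0.0453).

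Among ring subunits, Mcm7 stood out at day 21. In sufficient medium it read 9.72, 9.96, 9.64, 9.61 and 9.35 at day 14 and 8.71, 8.69, 8.65, 8.80 and 8.57 at day 21. In excess medium it read 10.69, 10.61, 10.57, 10.55 and 10.52, then 10.34, 10.14, 10.34, 10.28 and 10.20. The excess arrays fell little while the sufficient arrays lost about 1 log2 unit, so the difference grew from 1.91-fold (0.93 ± 0.08, adjusted p = 4.56e-12) to 2.98-fold (1.58 ± 0.08, adjusted p = 6.85e-19), the smallest p of the set. Mcm5 read 6.04, 6.04, 5.96, 5.89 and 6.07 in sufficient and 6.89, 7.00, 7.25, 7.34 and 6.81 in excess medium at day 21 (2.09-fold, 1.06 ± 0.15, adjusted p = 1.94e-07), with no overlap. The other ring subunits, Mcm2, Mcm3, Mcm4 and Mcm6, lay between 0.62 and 0.91 at day 14 and between 0.85 and 0.97 at day 21.

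**Figure D3:**
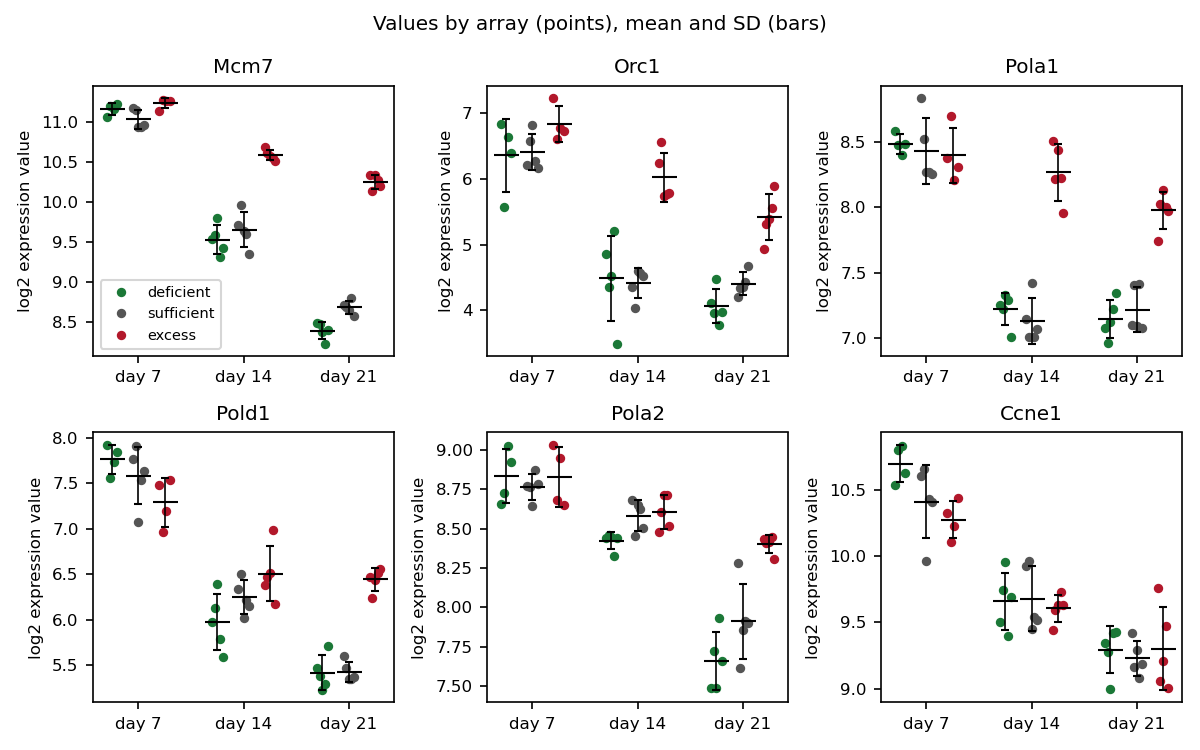
Log2 expression values of 6 replication genes by day and medium, 1 point per array, with the group mean and SD as bars. Excess arrays of Mcm7, Orc1 and Pola1 sit above all deficient and sufficient arrays at day 21, excess arrays of Pold1 and Pola2 separate from sufficient arrays only at day 21, and excess and sufficient arrays of Ccne1 overlap at each day.

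The helicase factors followed, with medians of 0.69 and 0.82 (3 of 3 higher at both days). Cdc45 read 4.98, 5.24, 4.99, 4.87 and 4.98 in sufficient and 6.44, 5.59, 6.14, 5.86 and 5.59 in excess medium at day 14 (0.91 ± 0.16, adjusted p = 1.46e-05), with every excess array higher. Gins1, a subunit of the GINS complex, was 6.56 ± 0.18 and 7.25 ± 0.19 at day 14, and 5.98 ± 0.14 and 7.01 ± 0.14 at day 21 (SD, n = 5 each). Its differences were 0.69 ± 0.10 and 1.03 ± 0.10. Mcm10, which helps to activate the helicase, was above the limit of 4 in 17 arrays only. These were arrays of day 7 and of excess day 14, through which alone it passed the filter. At day 21 it lay under the limit in every array of all media. It differed by 0.54 ± 0.12 and 0.40 ± 0.12, sizes that are inexact at so low a level.

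The polymerases divided. Pola1 had a difference among the 3 largest of the set at day 14, with 7.15, 7.01, 7.42, 7.01 and 7.07 in sufficient and 8.50, 8.21, 8.44, 8.22 and 7.95 in excess medium (2.20-fold, 1.13 ± 0.11, adjusted p = 1.09e-10). At day 21 its groups were still apart (0.76 ± 0.11). The primase subunits Prim1 and Prim2 differed by 0.49 ± 0.07 and 0.81 ± 0.09 at day 14 and by 0.65 ± 0.07 and 0.79 ± 0.09 at day 21. Pole differed by 0.66 ± 0.13 and 0.47 ± 0.13, and its groups overlapped at both days, by 1 high sufficient array at day 21.

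Pola2 encodes the partner of Pola1 within the same complex, yet it did not differ at day 14 beyond the spread. It read 8.68, 8.45, 8.65, 8.62 and 8.50 in sufficient and 8.48, 8.60, 8.71, 8.71 and 8.52 in excess medium (0.02 ± 0.09, 95% interval -0.16 to 0.21). At day 21 the sufficient values were 8.28, 7.61, 7.86, 7.91 and 7.90 and the excess values 8.44, 8.41, 8.42, 8.45 and 8.31, a difference of 0.49 ± 0.09 (adjusted p = 2.81e-05). All 5 excess arrays were then higher than the highest sufficient array. Pold1, the catalytic subunit of polymerase delta, had a like course. Its values at day 14 were 6.34, 6.50, 6.02, 6.22 and 6.15 in sufficient and 6.38, 6.47, 6.52, 6.99 and 6.17 in excess medium (0.26 ± 0.14, 95% interval -0.03 to 0.55, adjusted p = 0.138). At day 21 they were 5.60, 5.47, 5.35, 5.35 and 5.37 against 6.47, 6.24, 6.43, 6.52 and 6.56 (2.02-fold, 1.02 ± 0.14, adjusted p = 2.22e-07). The groups overlapped at day 14 and were far apart at day 21.

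Clamp, loader and strand processing genes were higher in 8 of 8 at both days, with medians of 0.49 and 0.71. Rfc3, a clamp loader subunit, read 7.72, 7.70, 7.84, 7.86 and 7.77 in sufficient and 8.03, 8.39, 8.37, 8.21 and 8.22 in excess medium at day 14 (0.47 ± 0.11, adjusted p = 0.000901). At day 21 it read 6.83, 6.90, 7.25, 7.48 and 6.74 against 8.12, 7.91, 8.07, 8.29 and 8.04 (2.07-fold, 1.05 ± 0.11, adjusted p = 5.44e-10). Both days were without overlap. Pcna had the smallest difference of the step at day 21, 0.42 ± 0.05, with 11.75, 11.67, 11.74, 11.74 and 11.69 in sufficient and 12.20, 12.16, 12.05, 12.13 and 12.12 in excess medium. Its values were among the tightest, and the groups did not touch.

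Lig1, which seals Okazaki fragments, differed by 0.63 ± 0.10 and 1.06 ± 0.10, and Rpa2, a subunit of the protein that coats single strands, by 0.65 ± 0.11 and 0.89 ± 0.11. Lig1 has another probe set that passed the filter and did not follow at day 14, where it differed by -0.12, while at day 21 it differed by 0.70. With the mean of its probe sets, Lig1 lost its call at day 14 (0.25, adjusted p = 0.136). The other probe set of Rfc5 differed by 1.15 and 1.07 at days 14 and 21, against 0.39 and 0.61 for the one used. The other passing probe sets of Cdc45, Tk1, Dut and Mcm10 had the sign of the one used at both days, with sizes that varied.

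Nucleotide supply genes were higher in 3 of 3 at both days, with medians of 0.58 and 0.71. Rrm1, the large subunit of ribonucleotide reductase, read 10.50, 10.57, 10.52, 10.49 and 10.50 in sufficient and 11.10, 11.20, 11.18, 11.10 and 11.20 in excess medium at day 14 (0.64 ± 0.05, adjusted p = 1.62e-12, the smallest of the set at that day). The 2 groups were tight and well apart. Tk1 differed by 0.43 ± 0.10 at day 14 and by 0.99 ± 0.10 at day 21, and Dut, which removes dUTP, by 0.58 ± 0.08 and 0.71 ± 0.08.

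Chaf1a read 6.23, 6.22, 6.29, 6.23 and 6.12 in sufficient and 7.30, 7.35, 7.17, 7.47 and 7.01 in excess medium at day 14 (2.06-fold, 1.04 ± 0.11), and 5.59, 5.87, 5.66, 5.54 and 5.86 against 6.77, 6.74, 6.94, 6.71 and 6.84 at day 21 (2.14-fold, 1.10 ± 0.11, adjusted p = 1.48e-10). The groups were apart by about the same distance at both days. E2f1 was higher by 0.43 ± 0.10 and 0.30 ± 0.10 (adjusted p = 0.00102 and 0.0163). Ccne1 alone had no call at either day. It read 9.93, 9.96, 9.45, 9.54 and 9.52 in sufficient and 9.44, 9.60, 9.63, 9.73 and 9.63 in excess medium at day 14, and 9.42, 9.16, 9.29, 9.08 and 9.18 against 9.76, 9.06, 9.21, 9.48 and 9.01 at day 21. The groups overlapped at both days, with differences of -0.07 ± 0.13 (95% interval -0.33 to 0.19) and 0.07 ± 0.13 (-0.18 to 0.33).

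The growth of the difference with time was tested as an interaction. The excess effect was larger at day 14 than at day 7 for 27 of 31 genes (13.8% of all genes higher), with a median of 0.66. It was larger at day 21 than at day 7 for 28 of 31 (17% of all genes higher), with a median of 0.83. Cdt1, Orc1 and Pola1 led at day 14, by 1.20 ± 0.17, 1.18 ± 0.33 and 1.17 ± 0.16. Mcm7, Pold1 and Rfc3 led at day 21, by 1.38 ± 0.12, 1.31 ± 0.21 and 1.24 ± 0.16. Between days 14 and 21 it grew for 5 genes (3.94% of all genes higher), Pold1 by 0.76 ± 0.20, Mcm7 by 0.64 ± 0.11, Rfc3 by 0.58 ± 0.16, Tk1 by 0.56 ± 0.14 and Pola2 by 0.47 ± 0.13. With the mean of its 3 probe sets Tk1 lost this call (0.26, adjusted p = 0.176), its other probe sets giving 0.14 and 0.08. These 5 became 1 without serials 53 to 56, or when the 8 arrays past the beta-actin limit were left out, and 27 became 16 without those 8 arrays.

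The excess differences moved with other measured features of these arrays. Smooth muscle markers were lower in 6 of 10 at day 14 (median -0.23, 18.8% of all genes lower) and in 6 of 10 at day 21 (median -0.54, 19.3% of all genes lower). The mean of the 10 lay between 10.88 and 11.22 in sufficient and between 10.65 and 10.79 in excess medium at day 14, and between 11.04 and 11.39 against 10.61 and 10.71 at day 21. Skeletal muscle markers were lower in 4 of 5 tested at both days, and the mean of the 6 listed lay between 5.76 and 6.05 in sufficient and between 4.78 and 4.96 in excess medium at day 21. Of 5 fibroblast markers the mean lay between 4.25 and 4.42 against 4.66 and 5.09 at day 21. Among them Lum rose, with day 21 group means of 2.42 in sufficient and 5.30 in excess medium. It exceeded the limit of 4 in 6 arrays only, reaching 5.84. Thy1, above that limit in all 43 arrays, did not rise, with 11.52 in sufficient and 11.39 in excess medium. Pdgfra, Dcn and Fap stayed under the limit in all arrays. The part of these shifts in the replication result was not tested.

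The beta-actin difference between 3′ and 5′ ends ranged from 1.43 to 1.82 in sufficient and from 1.40 to 2.80 in excess medium at day 14, and from 1.56 to 1.98 against 1.76 to 2.79 at day 21. The counts that follow come without the share of all genes in the same fit, so they show only how the counts of these 31 genes moved. Without the 8 arrays above 2.1, 24 of 31 genes were higher at day 14 (median 0.64) and 27 at day 21 (median 0.77). Within serials up to 45, 25 were higher at day 14 (median 0.64) and 29 at day 21 (median 0.84). Among serials above 45 alone, with 2 arrays in either medium, 27 were higher at day 21 (median 0.81). At day 14 such serials cover 1 sufficient and 3 excess arrays, and fewer calls held there, as given in the closing section. The call of Orc1 at day 21 was lost without the 8 arrays (0.72, adjusted p = 0.0815), as were those of Mcm10 and E2f1 at both days and of Rfc4 and Rfc5 at day 14. Without them Cdc45 differed by 0.58 at day 14, against 0.91 with all arrays, and Rfc5 by 0.25 against 0.39. Without serials 53 to 56 Rfc5 lost its call at day 14 (0.33, adjusted p = 0.0706). E2f1 at day 21 lost its call also without replicate 4 of sufficient medium (0.23) or replicate 1 of excess medium (0.26).

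**Figure D4:**
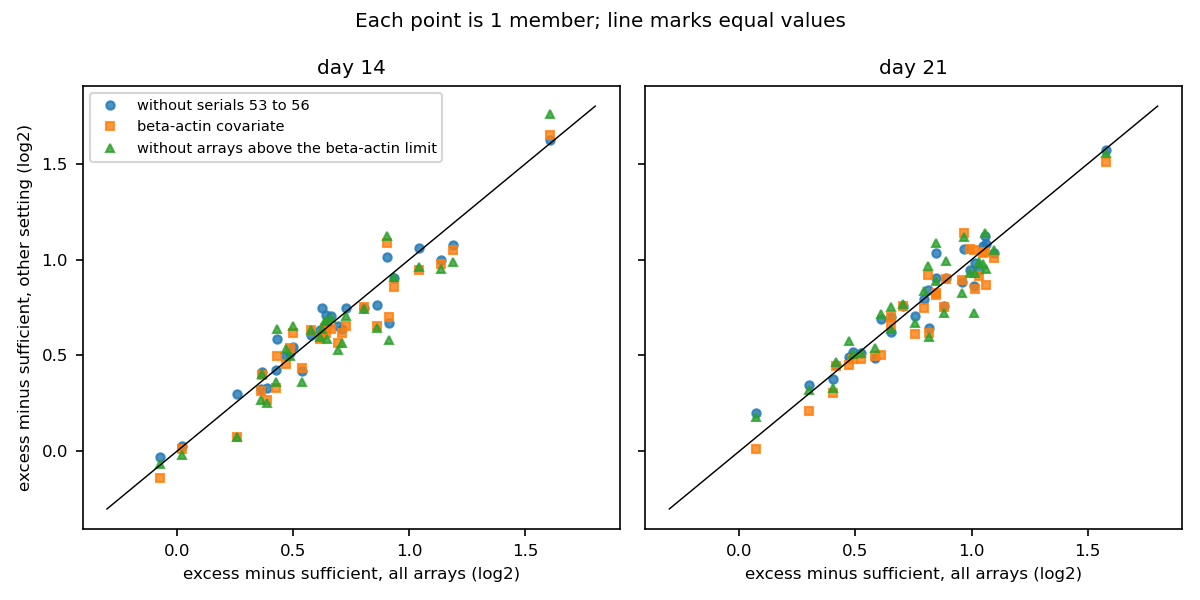
Each point is 1 replication gene, with its excess minus sufficient difference over all arrays on the horizontal axis and under another setting on the vertical axis (log2), at days 14 and 21. The settings are without serials 53 to 56, with the beta-actin difference as a covariate, and with the 8 arrays past the beta-actin limit left out, and most points stay near the line of equal values, with Cdc45 at day 14 moving from 0.91 to 0.58 without the 8 arrays.

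Deficient medium gave no call among the 31 genes at any day. At day 7, 0 of 31 passed (0% of all genes tested), with 5 at an unadjusted p below 0.05 and a median of 0.07. At day 14, 0 of 31 passed (0.088% of all genes), with 5 at an unadjusted p below 0.05 and a median of 0.06. At day 21, 0 of 31 passed (0.781% of all genes), with 7 at an unadjusted p below 0.05 and a median of -0.07. These tests do not show that the media are alike. The 95% intervals allowed a difference of up to 1.49-fold at day 7, 1.47-fold at day 14 and 1.74-fold at day 21 for single genes, and the widest intervals belonged to Orc1, Cdc45 and Mcm5.

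**Figure D5:**
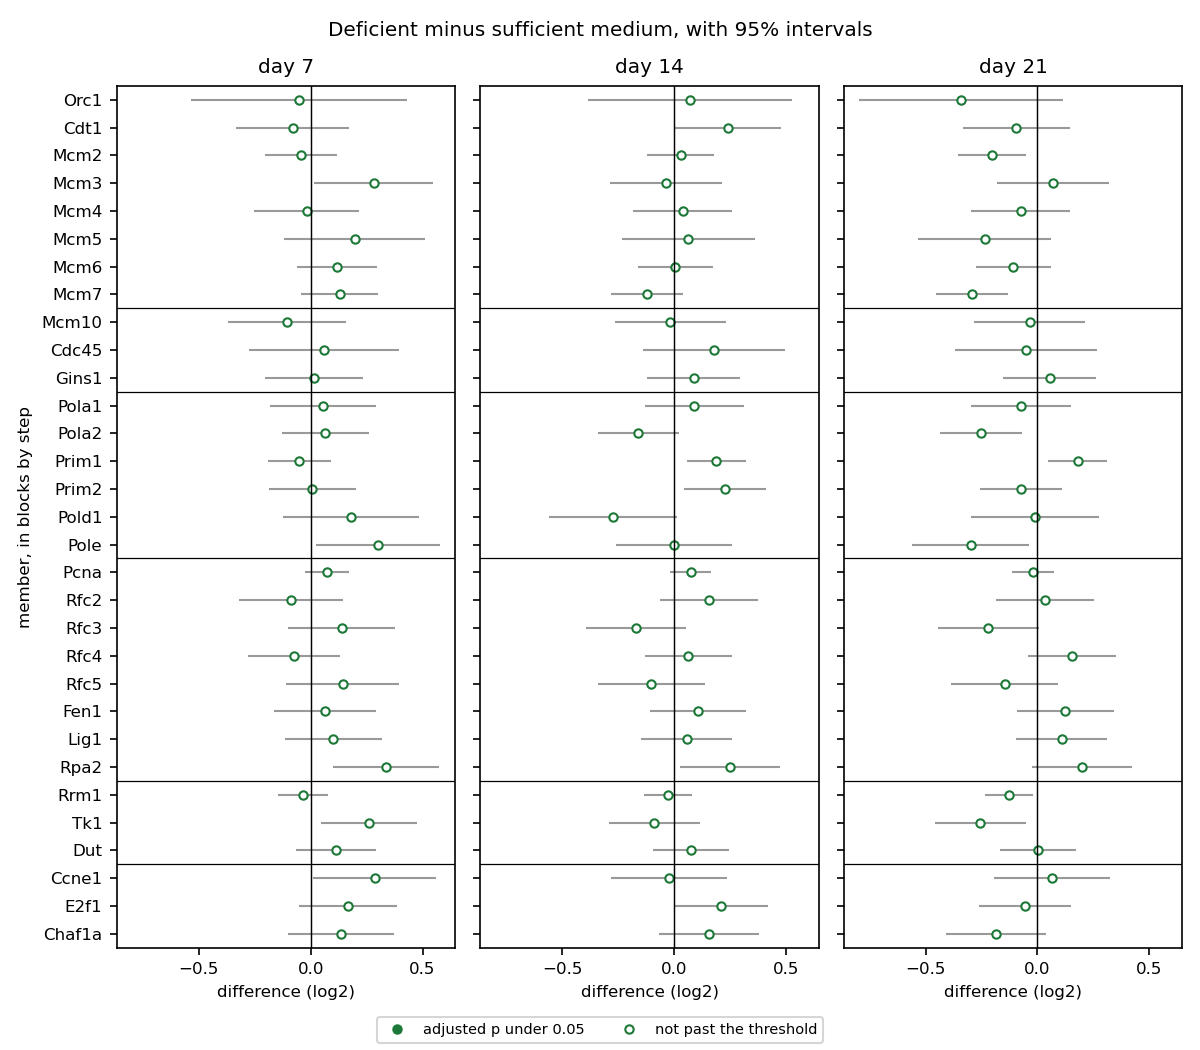
Deficient minus sufficient medium for each of the 31 replication genes at days 7, 14 and 21 (log2), with 95% intervals from limma. All points are open, since none passed an adjusted p of 0.05, and Mcm7 at day 21 lay closest to it at -0.29.

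Mcm7 at day 21 came nearest to a call. It read 8.48, 8.47, 8.37, 8.23 and 8.40 in deficient and 8.71, 8.69, 8.65, 8.80 and 8.57 in sufficient medium (-0.29 ± 0.08, 95% interval -0.45 to -0.13, adjusted p = 0.0684 in limma). All 5 deficient arrays were lower than all 5 sufficient arrays, in 1 of 31 genes against 2.16% of all genes tested. With a term for the array series its adjusted p was 0.0364, with array weights 0.0209 and with the beta-actin covariate 0.0499. Pole, Pola2, Tk1 and Mcm2 differed by -0.30 ± 0.13, -0.25 ± 0.09, -0.26 ± 0.10 and -0.20 ± 0.07 at day 21, with adjusted p from 0.2 to 0.315, and Prim1 by 0.18 ± 0.07. The deficiency effect did not pass a test of its change from day 7 to day 21 in any gene (0 of 31, 0.044% of all genes, 6 at an unadjusted p below 0.05, median -0.14).

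The wider replication machinery was counted from a further list of 54 genes, of which 42 were tested. At day 14, 27 of 42 were higher in excess than in sufficient medium and 1 was lower, with a median of 0.49 (22.3% of all genes higher, 18.8% lower). At day 21, 30 were higher and 2 lower, with a median of 0.59 (24.4% of all genes higher, 19.3% lower). Ccna2, the S phase and G2 cyclin, was higher by 1.30 ± 0.11 and 1.10 ± 0.11, and Nasp, a histone chaperone, by 1.18 ± 0.11 and 1.16 ± 0.11. Uhrf1, which takes part in copying DNA methylation to new strands, was higher by 0.93 ± 0.13 and 1.23 ± 0.13. Gmnn, the inhibitor of Cdt1, was higher by 1.00 ± 0.12 and 0.74 ± 0.12. The exceptions were Rnaseh2a, with a difference of -0.31 ± 0.10 at day 14, and Orc4 and Asf1a, the former higher by 0.18 ± 0.07 at day 14, with -0.24 ± 0.07 and -0.30 ± 0.11 at day 21. Over the first week in sufficient medium 37 of the 42 fell (24.7% of all genes lower), and Pold4, the smallest subunit of polymerase delta, rose by 1.23 ± 0.13.

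Regulators of entry into and exit from the cycle were mixed. Of 20 listed, 16 were tested, and 6 were higher and 3 lower in excess medium at each of days 14 and 21. The 3 lower are close to the share of all genes that were lower, 18.8% at day 14 and 19.3% at day 21, where 22.3% and 24.4% were higher. Mki67, the proliferation marker, was higher by 1.11 ± 0.07 and 1.13 ± 0.07, and Rbl1, a retinoblastoma family protein that is itself an E2F target, by 0.81 ± 0.10 and 0.87 ± 0.10. The inhibitors Cdkn2c and Cdkn1b were higher too, by 1.19 ± 0.12 and 1.36 ± 0.12 and by 0.61 ± 0.06 and 0.53 ± 0.06. The D-type cyclins Ccnd2 and Ccnd3, which act in G1, had differences of -0.54 ± 0.11 and -0.77 ± 0.15 at day 14 and of -0.26 ± 0.11 and -0.86 ± 0.15 at day 21.

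The 31 genes followed each other closely over the 9 groups. The correlation of a gene's group means with the mean of the others had a median of 0.9837 and was lowest for Ccne1, at 0.8826. Pola2 was at 0.8875 and Cdt1 at 0.9233. Group means share time and medium by construction. Within groups the deviations of pairs of genes correlated with a median of 0.1215 over 465 pairs (from -0.5848 to 0.7366, 43 arrays), and those of 27 genes correlated positively with the mean of the others. The genes with group means most like the average of the set, outside it, were Stil and Tcf19 (r = 0.9967 over 9 groups), Pradc1 (0.9966), Cenpn (0.9958) and Tamm41 (0.9957).

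The promoter words printed above were set beside these differences. The 18 tested genes with an E2F word had a median difference of 0.65 between excess and sufficient medium at day 14 and 0.86 at day 21, and the 10 without a word had 0.41 and 0.63. The ranges overlapped, from 0.02 to 1.19 with a word and from -0.07 to 0.81 without one at day 14. At day 21 they ran from 0.40 to 1.58 with a word and from 0.07 to 1.02 (Pold1) without one. Pola2, which has the word TTTGGCGG, had the lowest value among those with a word at day 14, and Ccne1, with none in this window, had the lowest at both days among those without. Over the first week in sufficient medium the medians were -1.32 with a word and -1.08 without.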

How the data were processed

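Values came from 43 Affymetrix Rat230_2 arrays of A7r5 RNA in 9 groups. The authors deposited log2 values for 31099 probe sets. These come from GCRMA, according to the submitters' processing notes, where limma is also listed, both without a version. GCRMA subtracts a sequence-based background, equalizes the arrays and summarizes probes, so low values lie near background. No scanner files were used here.

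Gene names are those of the platform annotation and were checked against RefSeq genes by Entrez identifier, which matched for 32 of the 32 genes represented here. Probe sets with several symbols (436), without an entry (9831) and controls (57) were not used for naming. A gene was kept if its log2 value exceeded 4 in at least 4 arrays, and 9095 genes were tested. All arrays entered a single model of 9 group means in limma 3.58.1 (R 4.3.3; 34 residual and 4.12 prior degrees of freedom), with 16 comparisons, 4 of them interactions. All p-values are two-sided, with Benjamini-Hochberg adjustment across the genes tested and a threshold of 0.05. Errors are standard errors of the model for differences and SDs for levels. The script was tested on simulated data. Plots were made with matplotlib 3.10.9 under Python 3.11.15, and tables were read there with pandas 2.3.3 (numpy 2.4.6).

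The genes and lists were chosen with earlier results of these data known. Every gene is counted, and values by array are given for those past the threshold with the 3 largest differences in a comparison and for those that departed from the rest, with Pcna and Rrm1 added after their values were seen. Alternatives covered the replicate block, array series, beta-actin, normalization, filter, probe set choice, array weights, the groups in the fit and single arrays left out. The limit on beta-actin and the fit to serials above 45 were chosen after seeing the data. The number of arrays limits precision.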

Additional observations from a re-analysis of the deposited data

Results flagged for a closer look

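Some single arrays stood apart from the rest of their group. The gap to the nearest other array exceeded the 95% limit of Dixon's test in 7 of 144 groups checked, and chance alone gives about 1 in 20. Pole read 8.18 in replicate 6 of sufficient day 7, where the nearest array was at 8.61, and E2f1 read 5.35 in the same array, with 5.75 nearest. Mcm7 read 11.14 in replicate 1 of excess day 7 (nearest 11.27). Pola2 read 8.33 in replicate 5 of deficient day 14 (nearest 8.44) and 8.31 in replicate 5 of excess day 21 (nearest 8.41). E2f1 was high at 5.74 in replicate 3 of deficient day 14 (nearest 5.42), and Pole was high at 6.50 in replicate 3 of sufficient day 21 (nearest 6.08).

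The excess effect differed between days by the test of the interaction in limma. From day 7 to day 14 it grew for 27 of 31 genes, led by Cdt1 (1.20), Orc1 (1.18) and Pola1 (1.17). From day 7 to day 21 it grew for 28 genes, led by Mcm7 (1.38), Pold1 (1.31) and Rfc3 (1.24). From day 14 to day 21 it grew for 5 genes, led by Pold1 (0.76), Mcm7 (0.64) and Rfc3 (0.58).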

How the results depend on the processing

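Of the 269 calls of the 31 genes over all comparisons, 201 held in every alternative in which the gene was tested and 68 were lost in at least 1. For the 15 genes chosen for values by array, with 125 calls, 2904 of 3008 recomputed values kept direction and call, 104 kept only the direction and 0 reversed. For excess against sufficient medium at day 7, the single call became 0 with the replicate block, quantile normalization, no filter, the mean of probe sets, the compared groups only, or without arrays above the beta-actin limit, and 2 with the array series covariate, serials up to 45 or array weights (0 to 2 leaving out single arrays). At day 14 the count of 28 became 14 among serials above 45, where sufficient medium has 1 array against 3, so that its spread is taken from the other groups. For deficient medium at day 21 the count of 0 became 1 with the series covariate, array weights or the beta-actin covariate, Mcm7 each time. For day 21 against day 14 in excess medium the count of 12 became 6 with serials up to 45, 7 without serials 53 to 56 and 3 without arrays above the beta-actin limit (8 to 13 leaving out single arrays). For the growth of the excess effect from day 14 to day 21, 5 became 1 in each of these 3 subsets. With array weights 9 passed, 8 growing and 1 (Pola1) shrinking (5 to 6 leaving out single arrays). From day 7 to day 14, 27 became 16 without arrays above the beta-actin limit (26 to 28). The change of the deficiency effect from day 7 to day 21 went from 0 to 2 with array weights. The cause was not tested where fewer samples do not give it. The labels do not say whether replicate numbers pair the samples. Deviations of arrays sharing a number correlated from -0.536 to 0.59, over 3 or 4 shared numbers in each comparison, too few to settle it. With the replicate block the excess counts at days 14 and 21 were 28 and 30. Low signal limits Mcm10, Orc1 and Ccne2.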
